A study of Mus musculus with 6 samples.

Results

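The lysosomal genes of mouse epididymal clear cells were examined by region, using 41 genes that encode lysosomal hydrolases, lysosomal membrane proteins, the regulator Tfeb and the growth factor precursor Grn. They were found by exact match of the gene name in the deposited table of 37578 genes. The names matched 42 rows, because Glb1 names 2 rows, and 41 genes were counted, of which all 41 passed the filter on low counts. The epididymis is the duct in which sperm mature, and its caput, corpus and cauda are the proximal, middle and distal parts. Clear cells belong to its epithelium and acidify the duct by pumping out protons. They were sorted in 2 rounds for EGFP from untreated transgenic mice aged 12 weeks in which the promoter of Atp6v1b1, a proton pump subunit gene, drives EGFP. All 3 regions carry the same transgene, each region has 2 libraries, and each library pools 12 epididymides. Whether the pools of a region came from different mice is not stated in the labels, and p-values therefore cover the spread among these libraries alone, which may be technical.

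Lysosomes are acidic compartments in which hydrolases break down glycans, lipids, proteins and nucleic acids. Most of the hydrolases are made in the endoplasmic reticulum, tagged with mannose 6-phosphate in the Golgi apparatus and carried to the lysosome by receptors, while some escape and are secreted. Their genes share a transcription factor, TFEB, which binds an E-box motif in many lysosomal promoters. Clear cells are known for active endocytosis and for many lysosomes, and they take up material from the epididymal lumen, including the content of cytoplasmic droplets released by sperm.

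Levels are the authors' deposited RPKM, read counts per kilobase of gene relative to library size, with 1 scaling factor per library, so that genes can be compared with each other. Pairs of values are library 1 and library 2 of a region. Differences are log2 fold changes ± SE, positive where the first region named is higher, with Benjamini-Hochberg adjusted p from edgeR's quasi-likelihood test over 15816 genes. A gene was called at an adjusted p under 0.05. The SE was derived from the F statistic and is approximate.

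Reads in genes ranged from 18887128 to 24700717 per library. The defining clear cell genes were present throughout but fell along the duct. Foxi1, the transcription factor of proton-secreting epithelia, measured 1053 and 946 RPKM in caput, 161 and 162 in corpus, then 63.0 and 84.9 in cauda, and Atp6v1b1, whose promoter was used for the sort, measured 178 and 160.5 RPKM in caput, 27.5 and 33.7 in corpus, then 8.56 and 12.5 in cauda. All 11 clear cell markers were called higher in caput than in cauda, and their summed RPKM was 3313 and 3159 in caput, 657 and 795 in corpus, then 298 and 379 in cauda. Markers of other cell types were also present and differed by region. Those of principal cells summed above those of clear cells in all 6 libraries. Summed RPKM of 13 principal cell markers was 7980.1 and 9694 in caput, 52653 and 60479 in corpus, then 104416 and 95485 in cauda, and 9 of them were called higher and 4 lower in caput than in cauda. In corpus and cauda that sum is carried by the lower group, while in caput both groups make up much of it. The principal cell channel Aqp9, of the lower group, measured 6.86 and 3.95 RPKM in caput, 41.8 and 42.6 in corpus, then 52.7 and 51.4 in cauda. Of 8 basal cell markers 7 were called higher in caput than in cauda, with summed RPKM of 58.2 and 82.7 in caput, 22.7 and 16.9 in corpus, then 16.4 and 12.6 in cauda, and the basal keratin Krt5 measured 16.2 and 23.2 RPKM in caput, 4.58 and 2.40 in corpus, then 5.00 and 2.71 in cauda. Of 18 tested phagocyte markers 3 were called higher and 1 lower in the same comparison, with summed RPKM of 99.0 and 168 in caput, 79.6 and 119.8 in corpus, then 61.5 and 112 in cauda. Without Cd74, an antigen presentation gene that carries much of that sum, the other 19 summed to 35.6 and 51.4 in caput, 33.2 and 40.8 in corpus, then 33.3 and 43.3 in cauda, and the called lower one, the integrin Itgam, measured 0.101 and 0.132 RPKM in caput, 0.201 and 0.181 in corpus, then 2.08 and 1.83 in cauda. Among them the leukocyte phosphatase Ptprc measured 0.338 and 0.630 RPKM in caput, 0.248 and 0.427 in corpus, then 0.0883 and 0.256 in cauda, the macrophage receptor Csf1r 0.544 and 0.140 RPKM in caput, 0.0319 and 0.0575 in corpus, then 0.0440 and 0.206 in cauda, and lysozyme Lyz2 1.09 and 1.36 RPKM in caput, 4.56 and 1.14 in corpus, then 1.09 and 0.492 in cauda. Of 4 tested lymphocyte markers 0 were called higher and 1 lower, with summed RPKM of 1.45 and 10.7 in caput, 10.5 and 15.8 in corpus, then 2.04 and 10.6 in cauda, and Nkg7, a killer cell gene, was at 0 reads in all 6 libraries. Of 10 tested sperm and germ cell markers 4 were called higher in caput, with summed RPKM of 49.8 and 339.6 in caput, 6.59 and 62.6 in corpus, then 37.0 and 97.8 in cauda, and the sperm protamine Prm1 measured 15.9 and 101 RPKM in caput, 0.118 and 0.320 in corpus, then 0 and 0.230 in cauda. Smcp, a sperm mitochondrial gene, measured 3.34 and 40.3 RPKM in caput, 0 and 54.2 in corpus, then 24.5 and 86.1 in cauda, and so was also high in corpus 2 and cauda 2, where Prm1 was low. Of 11 tested stromal, muscle and endothelial markers 2 were called higher and 4 lower, with summed RPKM of 315 and 330.4 in caput, 78.5 and 72.7 in corpus, then 201 and 239.8 in cauda. Without the proteoglycan gene Dcn, which was called higher in caput, the other 11 markers summed to 7.31 and 22.2 in caput, 35.5 and 27.7 in corpus, then 32.4 and 47.6 in cauda, lowest in caput. Cd74, Itgam, Smcp and Dcn were picked out after their values were seen. The part of these cells in the lysosomal results was not tested. In sorted pools, fewer cells of a type and less RNA per cell cannot be told apart.

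The lysosomal genes as a group were abundant in all 3 regions and differed between regions gene by gene, with calls in both directions in every comparison. Their median level was 29.6 RPKM against 3.52 over all genes tested, and none was at 0 reads in any library. Summed over the 41 genes, RPKM was 3998 and 3752 in caput, 3421 and 3639.6 in corpus, then 3342 and 3189 in cauda. Without the scaling factor the sums were 5312 and 5203 in caput, 3274 and 3368 in corpus, then 2585 and 2526 in cauda. Against cauda, caput had 19 members higher and 13 lower, which is 78.0% of members called, and the share called over all genes tested was 66.9%, with 33.9% higher and 33.0% lower. Corpus had 16 members higher and 14 lower than cauda, 73.2%, where the share over all genes was 35.4%, with 17.3% higher and 18.0% lower. Caput had 17 higher and 14 lower than corpus, 75.6%, where the share over all genes was 65.0%, with 33.2% higher and 31.8% lower.

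Median log2 fold changes of the members were 0.19 in caput against cauda, 0.01 in corpus against cauda and 0.06 in caput against corpus, where those of all genes were 0.04, 0.00 and 0.04. Abundant genes are called more often, so the members were also set beside genes above a common floor. Among genes with a mean of at least 10 RPKM the share called was 81.7% in caput against cauda, 48.5% in corpus against cauda and 79.0% in caput against corpus. The 31 members at that level were called in 80.6%, 77.4% and 87.1%. In caput against cauda the members' share lay near that of all genes above the floor, and in the other two comparisons it lay above, by more in corpus against cauda. Levels above the floor were not matched. The 3 comparisons share libraries and are not independent. Scaling by library totals instead of TMM shifted the median of all genes by 0.86 in caput against cauda, 0.27 in corpus against cauda and 0.59 in caput against corpus, and gave 30 members higher and 5 lower in caput against cauda. Directions below are therefore relative to the bulk of the genes.

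**Figure D1:**
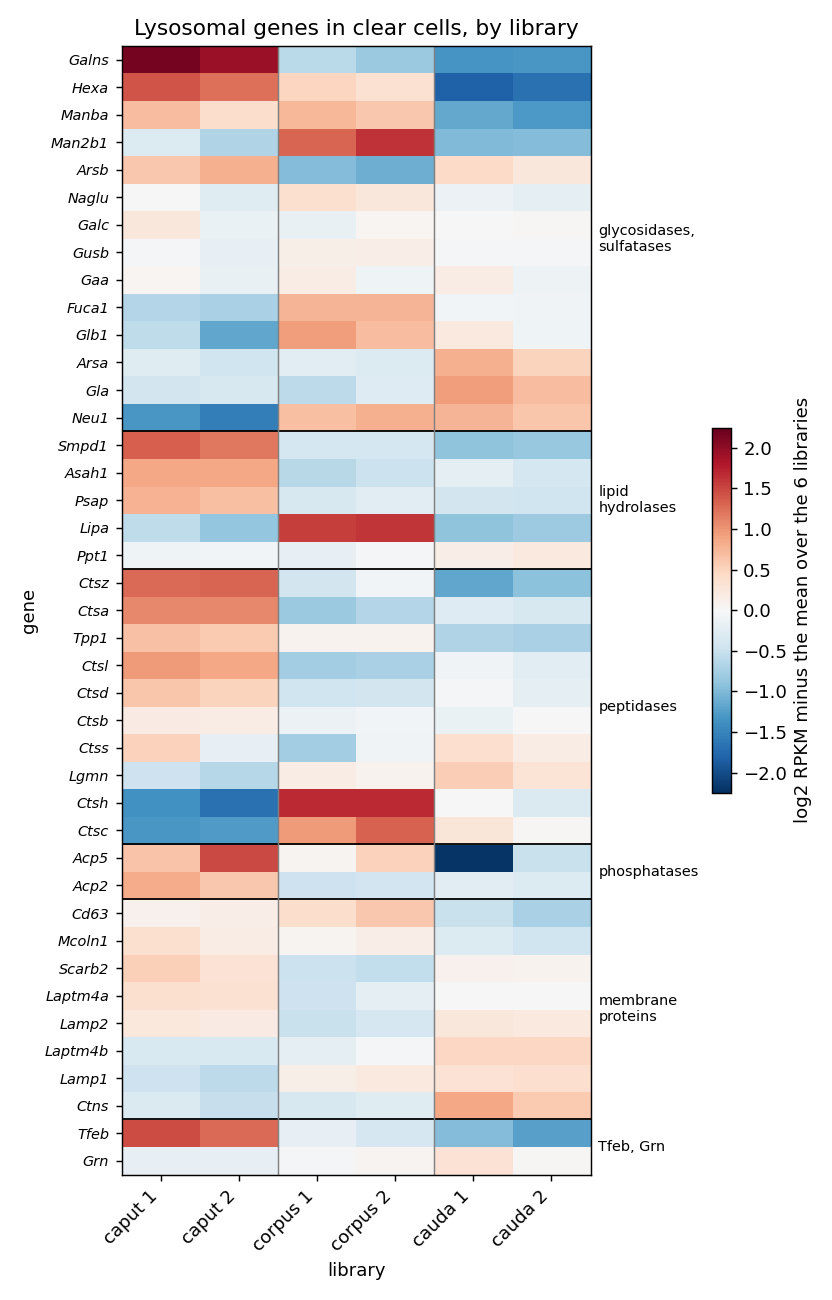
Rows are the 41 lysosomal genes by role and columns the 6 libraries; colour is log2 RPKM minus the gene's mean over the 6 libraries, red above and blue below. The 2 libraries of a region resemble each other, and rows of opposite colour stand beside each other within most roles.

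**Figure D2:**
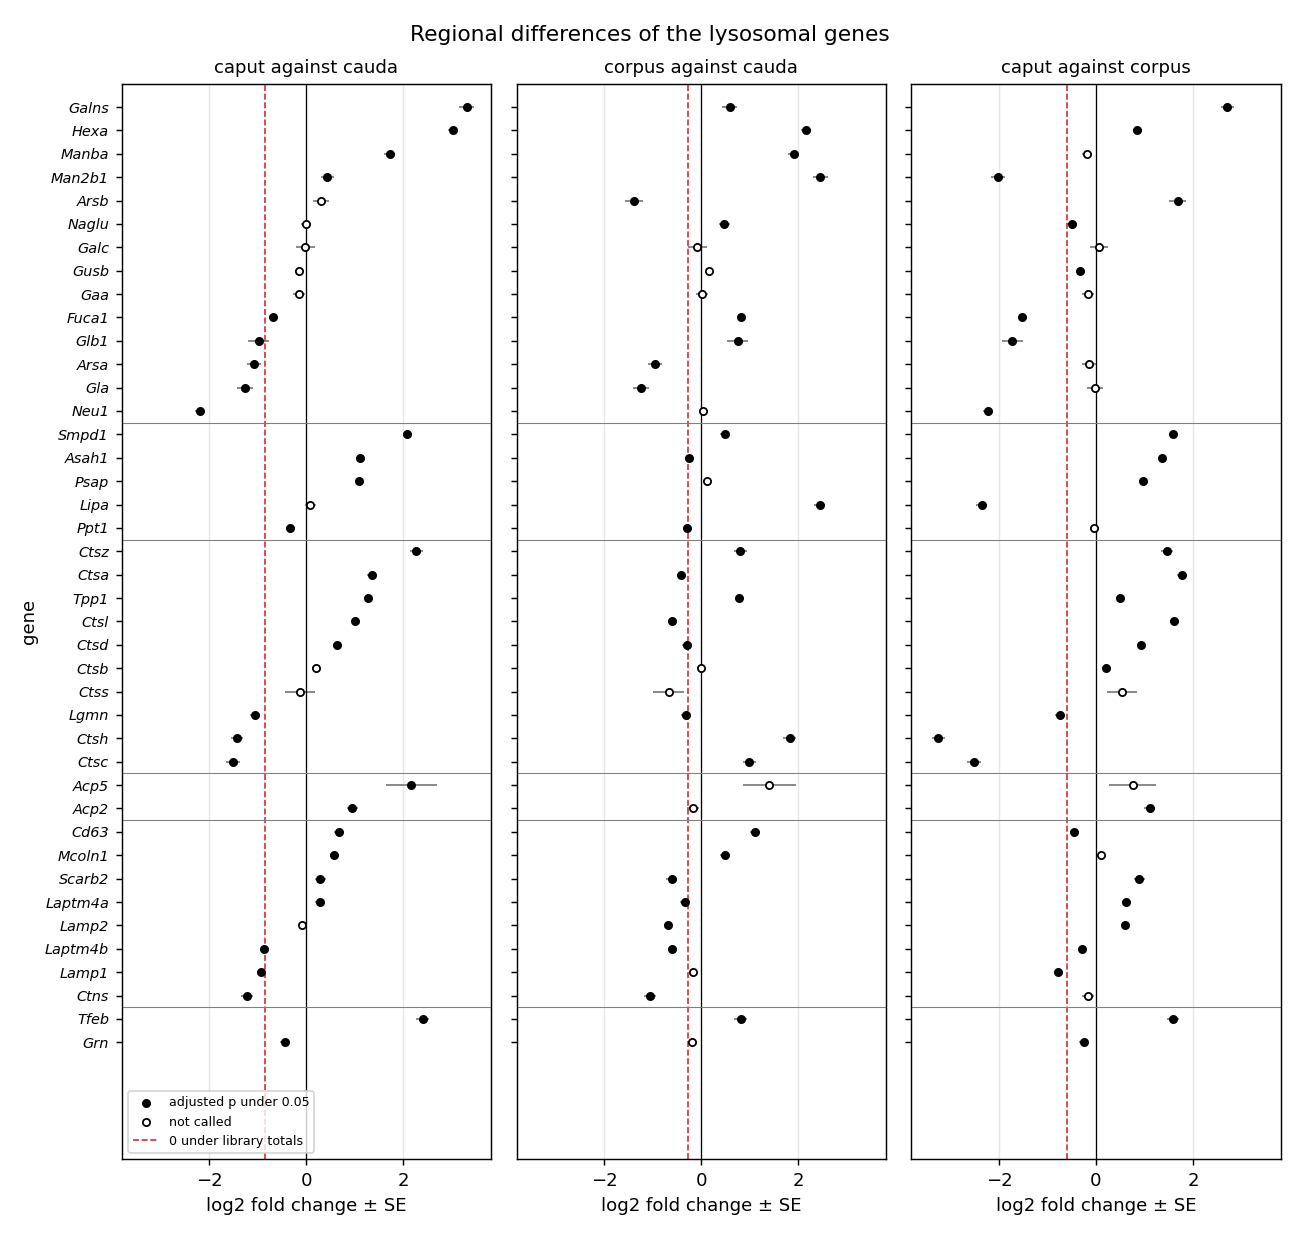
Points are log2 fold changes ± SE of the 41 genes in the 3 comparisons, filled where the adjusted p was under 0.05; the dashed red line marks where 0 would lie with scaling by library totals. Galns and Hexa lie farthest to the right in caput against cauda, and Ctsh, Ctsc, Lipa and Neu1 farthest to the left in caput against corpus.

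Enzymes that cut glycans or their sulfates, 14 of the members, split evenly between the duct ends and leaned towards corpus in the main fit. In caput against cauda 4 were called higher and 5 lower, in corpus against cauda 7 higher and 3 lower, and in caput against corpus 3 higher and 6 lower. Their summed RPKM was 455 and 395 in caput, 759.8 and 785 in corpus, then 462 and 431 in cauda, so both corpus libraries lay above the other 4. Library totals turned the direction of Gaa, Gusb, Galc, Naglu and Fuca1 in caput against cauda, and of Gaa, Gla, Gusb, Naglu, Manba and Arsa in caput against corpus. Of these, Fuca1 was called in the former comparison of the main fit, and Gusb and Naglu in the latter. With library totals Gaa, Gusb, Galc, Naglu and Fuca1 were called higher in caput than in cauda (adjusted p = 1.95e-05 to 0.0493). Gaa, Gla, Gusb, Galc, Manba and Arsa were then called higher in caput than in corpus (adjusted p = 0.00783 to 0.0193). The split and the lean in calls thus depend on the scaling. Sums without the scaling factor were 604 and 548 in caput, 727 and 727 in corpus, then 357 and 342 in cauda.

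Hexa (ENSMUSG00000025232), the alpha subunit of beta-hexosaminidase, which degrades GM2 ganglioside, measured 155 and 136 RPKM in caput, 81.0 and 73.5 in corpus, then 16.3 and 18.1 in cauda. Each step down the duct was lower without overlap, and caput exceeded cauda by 3.02 ± 0.10 (adjusted p = 1.58e-08) and corpus by 0.85 ± 0.09 (adjusted p = 2.78e-05). Gm2a, the activator protein of GM2 breakdown, was looked up after its values were seen, and its mean RPKM was 20.0, 25.0 and 23.0, lowest in caput (caput against cauda -0.27 ± 0.09, adjusted p = 0.0243).

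Galns (ENSMUSG00000015027), which removes sulfate from keratan sulfate and chondroitin 6-sulfate, had the largest positive difference of the members, at 17.6 and 15.2 RPKM in caput, 2.60 and 2.21 in corpus, then 1.58 and 1.60 in cauda. Both caput libraries stood far above the rest (caput against cauda 3.30 ± 0.15, adjusted p = 7.38e-08, caput against corpus 2.71 ± 0.14, adjusted p = 2.54e-07). The smaller difference of corpus against cauda (0.59 ± 0.15, adjusted p = 0.0148) lost its call without cauda 1, corpus 1 or cauda 2 (adjusted p = 0.0763 to 0.0964). Neu1 (ENSMUSG00000007038), the lysosomal sialidase, ran the other way and measured 37.7 and 31.9 RPKM in caput, 150.0 and 163 in corpus, then 159 and 143 in cauda. Both caput libraries lay far below the other 4 (caput against cauda -2.19 ± 0.10, adjusted p = 9.34e-08, caput against corpus -2.23 ± 0.10, adjusted p = 1.27e-07), while corpus and cauda overlapped. Glb1 (ENSMUSG00000045594), the beta-galactosidase, measured 18.8 and 12.4 RPKM in caput, 53.6 and 45.6 in corpus, then 32.7 and 26.1 in cauda, lowest in caput and highest in corpus without overlap. Its difference was -0.98 ± 0.21 (adjusted p = 0.00782) in caput against cauda and -1.73 ± 0.22 (adjusted p = 0.000693) in caput against corpus. The call of corpus above cauda (0.75 ± 0.21, adjusted p = 0.0386) was lost without any 1 of the corpus or cauda libraries (adjusted p = 0.0615 to 0.169), and with low counts left unfiltered both the call against cauda in corpus (adjusted p = 0.193) and that in caput (adjusted p = 0.0820) were lost. With library totals the difference of caput against cauda shrank to -0.12 (adjusted p = 0.602), and Glb1 was no longer lowest in caput.

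NEU1, GLB1 and GALNS form a complex with cathepsin A, which protects the first 2 from degradation in the lysosome, and the 4 genes did not move together. Ctsa (ENSMUSG00000017760) measured 32.9 and 32.8 RPKM in caput, 8.72 and 9.82 in corpus, then 12.6 and 12.0 in cauda, and both caput libraries lay above the rest as they did for Galns (caput against cauda 1.35 ± 0.09, adjusted p = 7.52e-07). Neu1 and Glb1 were instead lower in caput than in corpus. In mean RPKM, Neu1 and Ctsa were at nearly the same level in caput, at 34.8 and 32.8, and stood far apart in cauda, at 151 and 12.3. A second row named Glb1 in the deposited table (ENSMUSG00000079260), which the reference names Tmppe and which overlaps the locus, measured 3.06 and 2.72 RPKM in caput, 3.54 and 2.75 in corpus, then 2.20 and 1.71 in cauda. The reads were counted without strand, and records marked ambiguous between genes were left out. Either row may therefore miss reads from a shared stretch.

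**Figure D3:**
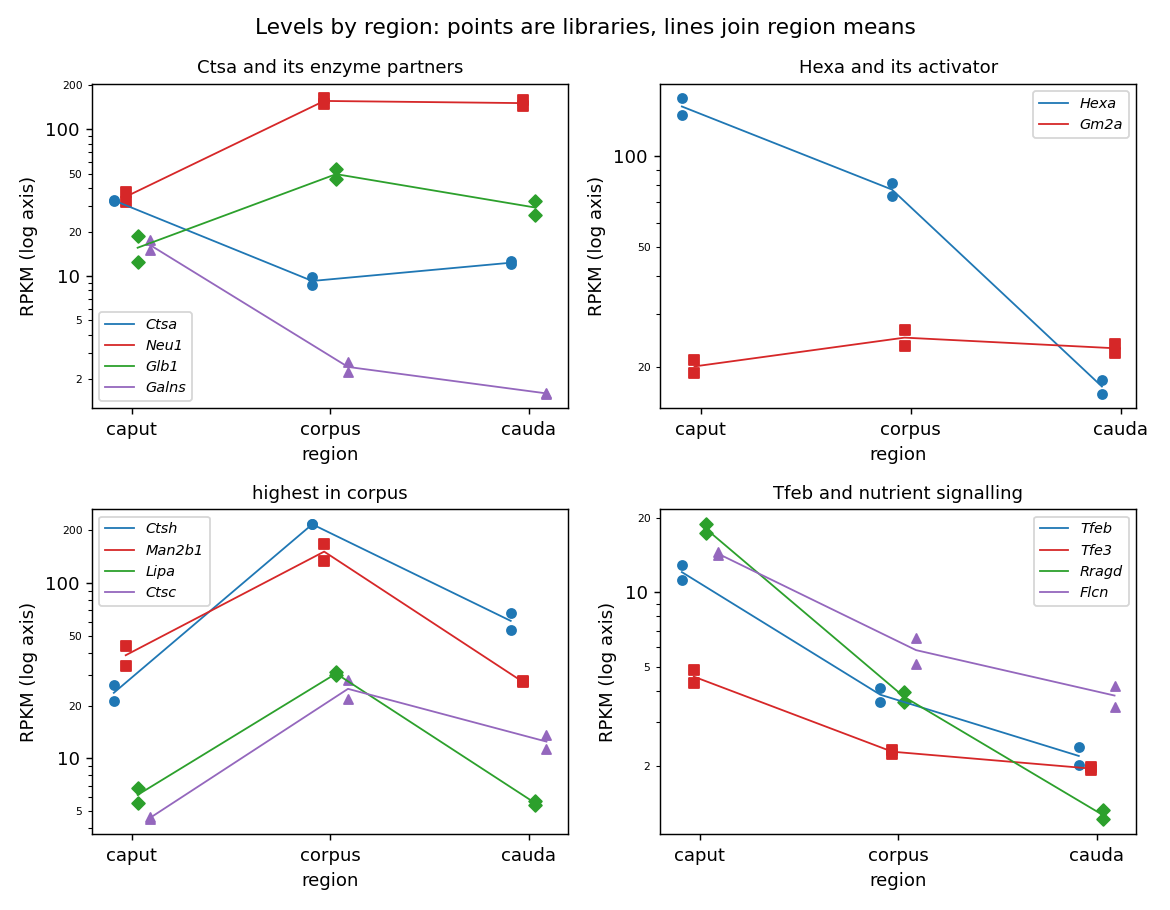
Points are RPKM of single libraries on a log axis and lines join region means, for Ctsa and its enzyme partners, Hexa with the activator Gm2a, 4 genes highest in corpus, and Tfeb with related signalling genes. Ctsa and Galns fall from caput while Neu1 and Glb1 rise, and Tfeb and Rragd fall at each step.

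Man2b1 (ENSMUSG00000005142), the lysosomal alpha-mannosidase, measured 43.6 and 33.7 RPKM in caput, 134 and 167 in corpus, then 27.2 and 27.5 in cauda. Both corpus libraries exceeded the other 4 (corpus against cauda 2.46 ± 0.15, adjusted p = 9.71e-06, caput against corpus -2.02 ± 0.14, adjusted p = 6.45e-06). The call of caput above cauda (0.44 ± 0.14, adjusted p = 0.0240) was lost without cauda 1, cauda 2 or caput 1 (adjusted p = 0.106 to 0.115) and with the gene length trend removed (0.14, adjusted p = 0.423). Fuca1 (ENSMUSG00000028673), which removes fucose, was the most abundant glycosidase in corpus, at 88.6 and 84.1 RPKM in caput, 237 and 238 in corpus, then 135 and 132 in cauda. It rose from caput to corpus (caput against corpus -1.52 ± 0.07, adjusted p = 1.56e-07) and was intermediate in cauda, with no overlap between regions. Naglu (ENSMUSG00000001751), an enzyme of heparan sulfate breakdown, measured 20.6 and 17.0 RPKM in caput, 26.2 and 24.5 in corpus, then 18.7 and 17.6 in cauda, so corpus lay above caput and cauda, which overlapped. Its corpus against cauda difference was 0.48 ± 0.10 (adjusted p = 0.00621), and the call was lost without corpus 1 or cauda 2 (adjusted p = 0.0543 to 0.0602). Arsb (ENSMUSG00000042082), which removes sulfate from dermatan sulfate, was the reverse, at 2.95 and 3.39 RPKM in caput, 0.986 and 0.910 in corpus, then 2.62 and 2.31 in cauda. Both corpus libraries were the lowest (corpus against cauda -1.38 ± 0.18, adjusted p = 0.000282, caput against corpus 1.68 ± 0.17, adjusted p = 2.28e-05).

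Manba, the beta-mannosidase, measured 14.4 and 11.7 RPKM in caput, 14.9 and 13.5 in corpus, then 3.97 and 3.60 in cauda, with caput and corpus overlapping and cauda below both (caput against cauda 1.72 ± 0.12, adjusted p = 1.09e-06). Its caput against corpus difference was called lower with the gene length trend removed (-0.54, adjusted p = 0.00115) and higher with library totals (0.40, adjusted p = 0.00783). Without caput 1 that difference was -0.33. Gla, the alpha-galactosidase that cleaves globotriaosylceramide, and Arsa, the sulfatase of sulfatide, were instead highest in cauda. Gla measured 3.04 and 3.15 RPKM in caput, 2.68 and 3.31 in corpus, then 7.69 and 6.51 in cauda (caput against cauda -1.26 ± 0.16, adjusted p = 7.88e-05). Arsa measured 2.88 and 2.54 RPKM in caput, 2.91 and 2.80 in corpus, then 6.03 and 4.93 in cauda (caput against cauda -1.08 ± 0.14, adjusted p = 0.000124), and this call was lost with library totals (-0.22, adjusted p = 0.184). Gusb, the beta-glucuronidase, stayed between 23.2 and 29.3 RPKM in the 6 libraries and in the main fit was called in caput against corpus alone (-0.32 ± 0.08, adjusted p = 0.00421). Its caput against cauda difference was called lower with the gene length trend removed (-0.42, adjusted p = 0.000985) and higher with library totals (0.71, adjusted p = 1.95e-05). Library totals also gave a call in corpus against cauda (0.44, adjusted p = 0.00146). Gaa (ENSMUSG00000025579), which degrades glycogen, measured 21.7 and 18.6 RPKM in caput, 23.6 and 19.7 in corpus, then 23.4 and 19.4 in cauda and overlapped in all pairs of regions. Galc (ENSMUSG00000021003), which removes galactose from sphingolipids, measured 2.57 and 1.95 RPKM in caput, 1.93 and 2.22 in corpus, then 2.19 and 2.19 in cauda and likewise overlapped. Neither was called in any comparison of the main fit, but the alternatives gave calls in both directions. With the gene length trend removed Gaa was called lower in caput than in cauda (-0.52, adjusted p = 0.00321) and corpus (-0.48, adjusted p = 0.00514). With library totals both were called higher in caput than in cauda (Gaa 0.70, adjusted p = 0.000777, Galc 0.84, adjusted p = 0.00254). The same held against corpus (Gaa 0.42, adjusted p = 0.0144, Galc 0.65, adjusted p = 0.0108). A missed threshold does not show equal levels: the estimates of caput against cauda were -0.16 ± 0.12 for Gaa and -0.02 ± 0.19 for Galc.

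The 5 genes of lipid breakdown were mostly higher in caput, and their summed RPKM was 436 and 413 in caput, 235 and 254 in corpus, then 224 and 221 in cauda. Calls were 3 higher and 1 lower in caput against cauda, 2 and 2 in corpus against cauda, and 3 and 1 in caput against corpus; library totals turned Ppt1 in both comparisons with caput and Asah1 in corpus against cauda. Smpd1 (ENSMUSG00000037049), acid sphingomyelinase, measured 42.4 and 38.1 RPKM in caput, 12.8 and 12.8 in corpus, then 8.97 and 9.28 in cauda. It fell at each step down the duct without overlap (caput against cauda 2.08 ± 0.09, adjusted p = 8.74e-08, corpus against cauda 0.48 ± 0.10, adjusted p = 0.00357). Psap (ENSMUSG00000004207), the precursor of the saposins that present sphingolipids to their hydrolases, measured 259 and 240.4 RPKM in caput, 117 and 127 in corpus, then 113 and 110.2 in cauda. Caput was above corpus and cauda, which did not overlap but differed by 0.12 ± 0.08 (adjusted p = 0.268), and caput exceeded cauda by 1.09 ± 0.08 (adjusted p = 1.62e-06). Asah1 (ENSMUSG00000031591), acid ceramidase, measured 76.8 and 76.9 RPKM in caput, 27.3 and 30.1 in corpus, then 36.1 and 32.1 in cauda, and caput exceeded cauda by 1.11 ± 0.09 (adjusted p = 2.89e-06). Its lower level in corpus than in cauda (-0.25 ± 0.09, adjusted p = 0.0495) lost its call without any 1 library except cauda 2 (adjusted p = 0.0527 to 0.314), and when the fit held the 4 corpus and cauda libraries alone (adjusted p = 0.0588).

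Lipa (ENSMUSG00000024781), the acid lipase that hydrolyses cholesteryl esters and triglycerides, measured 6.82 and 5.59 RPKM in caput, 29.9 and 31.0 in corpus, then 5.45 and 5.75 in cauda. Both corpus libraries stood above the other 4, and caput and cauda overlapped (corpus against cauda 2.44 ± 0.12, adjusted p = 7.36e-07, caput against corpus -2.36 ± 0.11, adjusted p = 1.69e-07). Npc2, which carries the cholesterol freed in the lysosome to the membrane, is no member and was looked up after its values were seen, and it measured 239 and 202 RPKM in caput, 2173 and 2416 in corpus, then 523 and 499 in cauda. Npc2 too was highest in corpus (corpus against cauda 2.16 ± 0.10, adjusted p = 7.36e-07). Principal cell markers summed above clear cell markers in every library, and which cells Npc2 came from was not tested. Ppt1 (ENSMUSG00000028657), which removes fatty acids from proteins, measured 50.4 and 52.1 RPKM in caput, 47.8 and 53.0 in corpus, then 60.3 and 63.2 in cauda, with cauda above caput and corpus, which overlapped (caput against cauda -0.33 ± 0.08, adjusted p = 0.00469). Its call in corpus against cauda (-0.30 ± 0.08, adjusted p = 0.0182) was lost without corpus 1 or cauda 2 (adjusted p = 0.0995 to 0.165).

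Peptidases had the largest summed level of the roles in caput, and they separated into a group high in caput and a smaller one low there. The summed RPKM of the 10 genes was 1769 and 1653 in caput, 970.5 and 1001 in corpus, then 1044 and 948 in cauda. In caput against cauda 5 were called higher and 3 lower, in corpus against cauda 4 and 4, and in caput against corpus 6 and 3. Library totals turned the uncalled Ctsb in corpus against cauda (0.26) and removed the calls of Ctsd, Ctsa and Lgmn there. Ctsl (ENSMUSG00000021477), cathepsin L, an endopeptidase, measured 823 and 771 RPKM in caput, 246 and 253 in corpus, then 402 and 357 in cauda. Caput was highest and corpus lowest, with cauda between and no overlap (caput against cauda 1.01 ± 0.08, adjusted p = 4.66e-06, corpus against cauda -0.61 ± 0.08, adjusted p = 0.000451). Ctsd (ENSMUSG00000007891), the aspartic protease cathepsin D, took the same order at 592 and 541 RPKM in caput, 283 and 288 in corpus, then 370.3 and 331 in cauda (caput against cauda 0.63 ± 0.08, adjusted p = 0.000124). The lower level of Ctsd in corpus than in cauda (-0.30 ± 0.08, adjusted p = 0.0204) lost its call without cauda 1, corpus 1 or corpus 2 (adjusted p = 0.0754 to 0.133). The same order held for the carboxypeptidase Ctsa, given above, whose call in corpus against cauda (-0.42 ± 0.09, adjusted p = 0.00518) was lost without corpus 1 (adjusted p = 0.0579).

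Ctsz (ENSMUSG00000016256), cathepsin Z, a carboxypeptidase, measured 85.1 and 87.2 RPKM in caput, 26.3 and 33.5 in corpus, then 15.6 and 18.5 in cauda. It fell at each step without overlap, and caput exceeded cauda by 2.27 ± 0.13 (adjusted p = 5.72e-07). Tpp1, a tripeptidyl peptidase, fell in the same way, from a mean of 59.1 RPKM in caput through 40.4 in corpus to 23.4 in cauda (caput against cauda 1.27 ± 0.07, adjusted p = 3.46e-07). Ctsh (ENSMUSG00000032359), the aminopeptidase cathepsin H, had the reverse order of Ctsl and Ctsd, at 26.2 and 21.1 RPKM in caput, 216 and 215 in corpus, then 67.4 and 53.9 in cauda. Corpus was highest and caput lowest with no overlap, and the difference of caput against corpus was the largest negative one of the members (-3.25 ± 0.13, adjusted p = 1.83e-07). Ctsc (ENSMUSG00000030560), cathepsin C, which activates serine proteases of immune cells by removing dipeptides, measured 4.49 and 4.64 RPKM in caput, 21.7 and 28.1 in corpus, then 13.6 and 11.4 in cauda. It took the same order as Ctsh (caput against corpus -2.51 ± 0.14, adjusted p = 1.18e-06, corpus against cauda 0.99 ± 0.14, adjusted p = 0.000688).

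Lgmn, the asparaginyl endopeptidase that cuts cathepsins into their 2-chain forms, measured 19.3 and 17.0 RPKM in caput, 30.0 and 28.0 in corpus, then 39.0 and 32.8 in cauda (caput against cauda -1.05 ± 0.10, adjusted p = 1.59e-05). It rose at each step without overlap, but library totals removed that call (-0.19, adjusted p = 0.116), and the call in corpus against cauda (-0.31 ± 0.10, adjusted p = 0.0435) was lost without cauda 1, corpus 1 or corpus 2 (adjusted p = 0.123 to 0.307), with DESeq2 (adjusted p = 0.0531) and with the gene length trend removed (adjusted p = 0.0864). Ctsb, cathepsin B, stayed between 94.7 and 120.5 RPKM. Its difference of caput against cauda (0.19 ± 0.08, adjusted p = 0.0505) was called with the replicate block (adjusted p = 0.0391), with DESeq2 (adjusted p = 0.0262), with low counts left unfiltered (adjusted p = 0.00953), without cauda 2 (adjusted p = 0.0326) and with library totals (adjusted p = 2.15e-06). Its call in caput against corpus (0.20 ± 0.08, adjusted p = 0.0430) was lost without any 1 of the caput or corpus libraries (adjusted p = 0.0763 to 0.221) and turned negative with the gene length trend removed (-0.10). Ctss (ENSMUSG00000038642), cathepsin S, a protease of antigen-presenting cells, measured 5.06 and 3.09 RPKM in caput, 2.05 and 3.32 in corpus, then 4.58 and 3.97 in cauda and was called in no comparison. Its regions overlapped except corpus and cauda, whose difference was -0.67 ± 0.32 (adjusted p = 0.144). Its caput against corpus difference was 0.53 ± 0.32 (adjusted p = 0.165). That difference was called with library totals (1.12, adjusted p = 0.00884) and with the gene length trend removed (1.00, adjusted p = 0.0236). It was also called with the replicate block and the gene length trend removed together (0.96, adjusted p = 0.0278), and without caput 2 it was 0.83.

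Both phosphatases were higher in caput than in cauda, and in corpus against cauda 0 of 2 were called. Acp2 (ENSMUSG00000002103), the lysosomal acid phosphatase, measured 11.4 and 9.69 RPKM in caput, 4.63 and 4.71 in corpus, then 5.33 and 5.13 in cauda. Both caput libraries were the highest (caput against cauda 0.94 ± 0.11, adjusted p = 5.60e-05, caput against corpus 1.11 ± 0.11, adjusted p = 2.12e-05). Acp5 (ENSMUSG00000001348), the tartrate-resistant acid phosphatase known from osteoclasts and macrophages, was low, at 2.07 and 3.71 RPKM in caput, 1.38 and 1.90 in corpus, then 0.285 and 0.936 in cauda. Caput exceeded cauda without overlap (2.16 ± 0.53, adjusted p = 0.00607), on 109 and 171 reads in the caput libraries and 8 and 28 in the cauda libraries. Its corpus against cauda difference (1.41 ± 0.54, adjusted p = 0.0771) was called with low counts left unfiltered (adjusted p = 0.0284), with library totals (adjusted p = 0.0394), with the 4 corpus and cauda libraries alone (adjusted p = 0.0426) and with the replicate block (adjusted p = 0.0123). It was also called without caput 1 (adjusted p = 0.0433), without caput 2 (adjusted p = 0.0461) and without cauda 2, where it reached 2.51 (adjusted p = 0.0259).

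The 8 membrane proteins also moved both ways, with log2 fold changes in caput against cauda between -1.21 and 0.67. Calls were 4 higher and 3 lower in caput against cauda, 2 and 5 in corpus against cauda, and 3 and 3 in caput against corpus; library totals turned Lamp2 in the first and Cd63, Laptm4b and Ctns in the last. Lamp1 (ENSMUSG00000031447), a glycoprotein that lines the lysosomal membrane, was the most abundant member in corpus and cauda, at 466 and 427 RPKM in caput, 709 and 752 in corpus, then 805 and 833 in cauda. Caput was lowest without overlap (caput against corpus -0.77 ± 0.08, adjusted p = 2.26e-05, caput against cauda -0.94 ± 0.08, adjusted p = 5.11e-06), and with library totals the latter call was lost (-0.082, adjusted p = 0.316). Lamp2 (ENSMUSG00000016534), its relative, which also serves chaperone-mediated autophagy, measured 55.7 and 53.5 RPKM in caput, 33.2 and 36.1 in corpus, then 56.4 and 54.7 in cauda. Here corpus was lowest, and caput and cauda overlapped (corpus against cauda -0.68 ± 0.08, adjusted p = 0.000125). With the gene length trend removed Lamp2 was called lower in caput than in cauda (-0.54, adjusted p = 0.000300) and was highest in cauda.

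Scarb2 (ENSMUSG00000029426), the membrane protein that carries glucocerebrosidase to the lysosome, measured 17.6 and 15.1 RPKM in caput, 8.60 and 8.27 in corpus, then 12.9 and 12.8 in cauda, lowest in corpus (caput against corpus 0.89 ± 0.12, adjusted p = 0.000113). Its call in caput against cauda (0.29 ± 0.11, adjusted p = 0.0489) was lost without any 1 library other than caput 2 (adjusted p = 0.0690 to 0.259), with DESeq2 (adjusted p = 0.0931) and when the fit held the 4 caput and cauda libraries alone (adjusted p = 0.0540). Laptm4a (ENSMUSG00000020585), a transmembrane protein of late endosomes and lysosomes, measured 324 and 320.4 RPKM in caput, 184 and 218 in corpus, then 255 and 253 in cauda, also lowest in corpus (caput against corpus 0.62 ± 0.09, adjusted p = 0.000246). Its call in caput against cauda (0.28 ± 0.09, adjusted p = 0.0207) was lost without any 1 caput or cauda library (adjusted p = 0.0523 to 0.0802), and that in corpus against cauda (-0.34 ± 0.09, adjusted p = 0.0167) without cauda 1, corpus 1 or cauda 2 (adjusted p = 0.0682 to 0.138). Its paralogue Laptm4b (ENSMUSG00000022257) took another order, at 95.0 and 94.0 RPKM in caput, 102 and 117 in corpus, then 166 and 166 in cauda. It was highest in cauda and lowest in caput (caput against cauda -0.88 ± 0.08, adjusted p = 1.14e-05), but that call was lost with library totals (-0.017, adjusted p = 0.845). Its call in caput against corpus (-0.28 ± 0.08, adjusted p = 0.0146) was lost without caput 1 or corpus 2 (adjusted p = 0.0567 to 0.126) and with the gene length trend removed (adjusted p = 0.203).

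Cd63 (ENSMUSG00000025351), a tetraspanin of late endosomes and exosomes, measured 221 and 228 RPKM in caput, 273 and 313 in corpus, then 146 and 124 in cauda. Corpus was highest and cauda lowest without overlap (corpus against cauda 1.12 ± 0.10, adjusted p = 3.67e-05). Its caput against corpus difference (-0.44 ± 0.10, adjusted p = 0.00347) turned to 0.15 with library totals and to 0.20 with the gene length trend removed. Ctns (ENSMUSG00000005949), which exports cystine from the lysosome, measured 5.93 and 5.17 RPKM in caput, 5.74 and 6.15 in corpus, then 13.5 and 11.2 in cauda. Both cauda libraries lay above the other 4 (caput against cauda -1.21 ± 0.12, adjusted p = 1.64e-05, corpus against cauda -1.05 ± 0.12, adjusted p = 0.000165). Mcoln1, the lysosomal calcium channel, measured 37.3 and 32.9 RPKM in caput, 30.5 and 32.3 in corpus, then 23.5 and 21.3 in cauda, and both cauda libraries were the lowest (caput against cauda 0.58 ± 0.09, adjusted p = 0.000305).

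Tfeb (ENSMUSG00000023990), the transcription factor that activates lysosomal genes when it enters the nucleus, measured 12.9 and 11.2 RPKM in caput, 4.12 and 3.60 in corpus, then 2.37 and 2.00 in cauda. It fell at each step down the duct without overlap, by 1.58 ± 0.13 (adjusted p = 3.88e-06) from caput to corpus and 0.82 ± 0.13 (adjusted p = 0.00126) from corpus to cauda, and caput exceeded cauda by 2.40 ± 0.13 (adjusted p = 2.85e-07). RNA levels say nothing of where the protein is. Its relative Tfe3, looked up after its values were seen, was at mean RPKM of 4.57, 2.28 and 1.95 (caput against cauda 1.17 ± 0.11, adjusted p = 1.46e-05). Grn (ENSMUSG00000034708), progranulin, a secreted protein that is cut into granulins in the lysosome, measured 89.1 and 90.0 RPKM in caput, 99.1 and 106 in corpus, then 127 and 104 in cauda. Caput was lowest, and corpus and cauda overlapped (caput against cauda -0.43 ± 0.10, adjusted p = 0.00355). Its call in caput against corpus (-0.26 ± 0.10, adjusted p = 0.0450) was lost without any 1 caput or corpus library (adjusted p = 0.0710 to 0.207), with DESeq2 (adjusted p = 0.0508) and with low counts left unfiltered (adjusted p = 0.0773). Library totals turned Grn positive in both comparisons with caput.

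The E-box that TFEB binds was looked for in promoter windows of RefSeq on GRCm38.p6, from 250 bases before to 50 after the transcription start. These windows were present for 36 of the 41 members, and Asah1, Ctsb, Ctsh, Galns and Laptm4b had none. The motifs were CACGTG and its extension TCACGTG, searched on both strands, and every match of the longer contains the shorter. CACGTG was in a promoter of 11 of 36 members, 30.6%, against 8.1% of 27025 genes and 7.2% of 32851 promoters of the same length. TCACGTG was in 10 of 36 members, 27.8%, against 4.3% of genes and 3.8% of promoters. The members' shares are by gene, over 44 windows, so the shares of genes are the like ones. Those genes were not limited to the ones tested here. The 10 members with the longer motif were Ctsa, Ctsd, Mcoln1, Naglu, Gaa, Lamp1, Glb1, Lgmn, Arsa and Gla. In caput against cauda 3 of them were called higher, 5 lower and 2 were not called, so they did not move in 1 direction. A match is a description of letters in a window, and factor binding was not measured.

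The 6 members with the longer motif and the largest differences of caput against cauda are printed 5′ to 3′ on the strand of the gene. Among them only Ctsa was higher in caput and the other 5 were lower. Ctsd and Mcoln1, which hold the longer motif with smaller differences, were also higher in caput. Capitals mark TCACGTG or its reverse complement, merged where they overlap. The windows were chr2:164833523-164833822 (+) for Ctsa, chrX:134600956-134601255 (-) for Gla, chr15:89477375-89477674 (-) for Arsa, chr12:102439043-102439342 (-) for Lgmn, chr9:114400828-114401127 (+) for Glb1 and chr8:13158911-13159210 (+) for Lamp1.
Ctsa: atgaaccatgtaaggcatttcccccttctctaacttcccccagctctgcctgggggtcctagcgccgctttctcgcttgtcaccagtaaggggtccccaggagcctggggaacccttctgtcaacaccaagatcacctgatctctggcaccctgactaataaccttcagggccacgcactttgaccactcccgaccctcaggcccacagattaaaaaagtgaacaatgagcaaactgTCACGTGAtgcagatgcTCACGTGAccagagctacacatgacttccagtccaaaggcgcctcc
Gla: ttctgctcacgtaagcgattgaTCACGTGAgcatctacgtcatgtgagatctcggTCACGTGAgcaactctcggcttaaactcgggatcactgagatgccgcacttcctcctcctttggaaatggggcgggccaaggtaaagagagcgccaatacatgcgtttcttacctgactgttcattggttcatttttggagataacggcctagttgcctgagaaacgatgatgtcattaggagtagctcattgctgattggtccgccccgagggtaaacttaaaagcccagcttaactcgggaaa
Arsa: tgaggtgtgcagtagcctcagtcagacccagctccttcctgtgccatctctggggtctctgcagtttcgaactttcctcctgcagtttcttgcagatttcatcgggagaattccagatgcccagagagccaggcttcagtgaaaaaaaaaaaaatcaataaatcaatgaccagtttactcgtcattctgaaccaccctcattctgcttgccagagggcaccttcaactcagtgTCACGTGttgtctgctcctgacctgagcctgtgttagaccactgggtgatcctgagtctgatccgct
Lgmn: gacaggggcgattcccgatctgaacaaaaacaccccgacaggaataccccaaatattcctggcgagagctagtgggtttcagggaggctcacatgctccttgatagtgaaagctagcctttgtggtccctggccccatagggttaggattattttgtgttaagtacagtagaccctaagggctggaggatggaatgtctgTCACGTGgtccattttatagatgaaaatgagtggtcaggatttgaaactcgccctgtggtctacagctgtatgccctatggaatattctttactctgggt
Glb1: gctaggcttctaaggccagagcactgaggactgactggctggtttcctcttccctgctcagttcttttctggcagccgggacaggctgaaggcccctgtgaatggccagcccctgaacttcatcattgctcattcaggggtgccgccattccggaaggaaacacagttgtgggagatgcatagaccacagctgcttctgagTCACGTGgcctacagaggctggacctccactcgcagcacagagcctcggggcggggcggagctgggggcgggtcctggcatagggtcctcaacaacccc
Lamp1: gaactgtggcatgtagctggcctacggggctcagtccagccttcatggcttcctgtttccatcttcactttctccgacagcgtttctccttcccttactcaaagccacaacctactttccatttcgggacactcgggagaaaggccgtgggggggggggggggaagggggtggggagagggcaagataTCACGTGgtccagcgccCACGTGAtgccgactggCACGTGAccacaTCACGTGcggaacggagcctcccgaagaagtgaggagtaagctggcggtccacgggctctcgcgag

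Ctsa holds the motif at -12 and 6 bases from the start, and Lamp1 holds it 4 times, at -61, -45, -28 and -15. Lgmn at -49, Glb1 at -48 and Arsa at -16 hold it once each, while the pair in Gla lies farther away at -227 and -194. The matches in Ctsa, which was high in caput, and those in Lamp1, Glb1, Lgmn and Arsa, which were low there, all lie between -61 and 6.

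**Figure D4:**
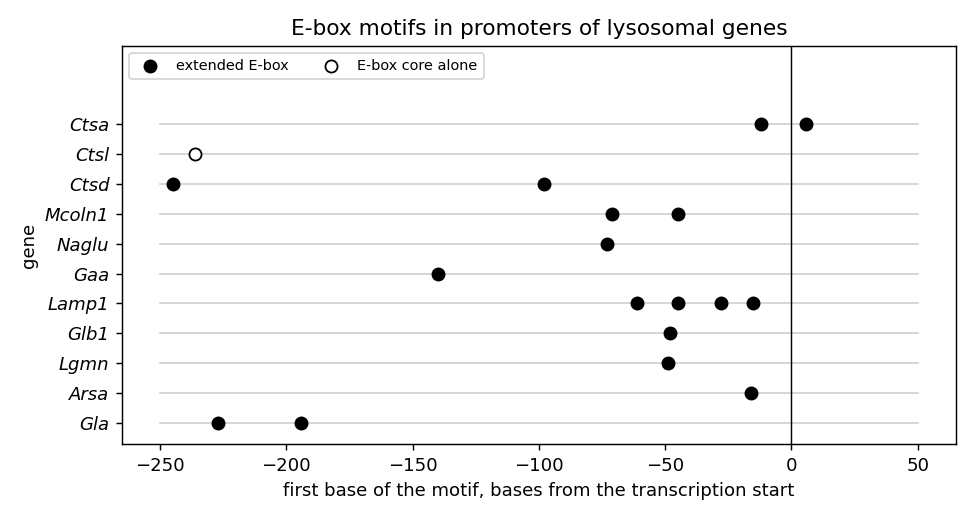
Points mark the first base of each motif match relative to the transcription start in the 11 members with a match, filled for the extended and open for the core motif alone, with genes ordered from the highest at the top to the lowest at the bottom by log2 fold change in caput against cauda. Matches near the start occur at both ends of that order, in Ctsa at the top and in Arsa, Lgmn, Glb1 and Lamp1 below.

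Taking the pairwise calls together, a member counts as highest in the region that was called above each of the other two, and lowest likewise. Caput was highest for 14 members (34.1%, against 26.8% of all genes), corpus for 8 (19.5% against 8.6%) and cauda for 6 (14.6% against 12.6%). Caput was lowest for 9 (22.0% against 24.6%), corpus for 8 (19.5% against 6.1%) and cauda for 10 (24.4% against 9.6%). Called in no comparison were 3 members, 7.3% against 21.0%. The members highest in corpus were Ctsh, Lipa, Man2b1, Fuca1, Ctsc, Cd63, Glb1 and Naglu, and the first 6 kept that order when any 1 library was left out. Those lowest in corpus were Arsb, Ctsl, Lamp2, Scarb2, Ctsd, Ctsa, Asah1 and Laptm4a, of which the first 4 kept it. Leaving out corpus 1 reduced the members lowest in corpus to 4, leaving out cauda 1 reduced them to 5, and the share of all genes then was 3.7% and 4.0%. Of the 14 members highest in caput 12 kept that place when any 1 library was left out, of the 6 highest in cauda 4, of the 9 lowest in caput 7 and of the 10 lowest in cauda 8. The shares over all genes include many genes of low level, which are called less often, and no test of the difference in shares was made.

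**Figure D5:**
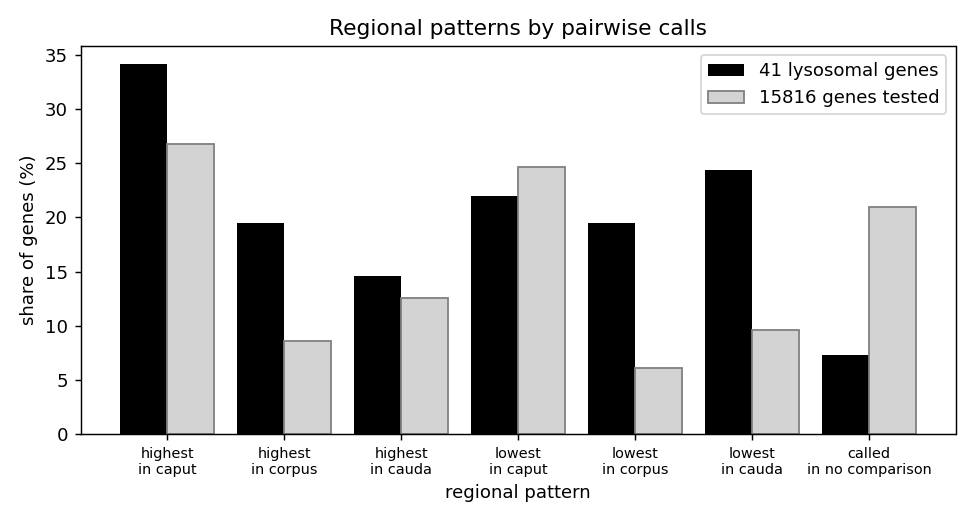
Bars give the percentage of the 41 lysosomal genes (black) and of the 15816 genes tested (grey) with each regional pattern by pairwise calls at an adjusted p under 0.05. The black bars exceed the grey most for highest in corpus, lowest in corpus and lowest in cauda, and fall short for genes called in no comparison.

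Further genes of the lysosome were counted in 4 lists, whose shares called are to be read against those of all genes. Of 37 other hydrolases and cofactors, 28 other membrane proteins, 23 genes of enzyme delivery and 38 of biogenesis and nutrient signalling, 83.8%, 71.4%, 91.3% and 65.8% were called in caput against cauda, where 66.9% of all genes were. In corpus against cauda the shares were 51.4%, 39.3%, 34.8% and 36.8%, where that of all genes was 35.4%, so 3 of the 4 lists lay near it. In caput against corpus they were 62.2%, 75.0%, 82.6% and 57.9%, where that of all genes was 65.0%. Of the 37 other hydrolases and cofactors, 16 were higher and 15 lower in caput than in cauda, 7 and 12 in corpus against cauda, and 12 and 11 in caput against corpus. The dipeptidyl peptidase Dpp7 (mean RPKM 4.47, 1.16 and 0.449, caput against cauda 3.24 ± 0.27) was higher in caput. The nuclease Dnase2a (10.5, 39.2 and 26.7, -1.41 ± 0.09), the thioesterase Ppt2 (2.34, 5.93 and 8.49, -1.92 ± 0.14) and Aga, which cuts glycans from asparagine (52.0, 152 and 141, -1.50 ± 0.11), were lower there. Of 28 tested other membrane proteins, 12 were higher and 8 lower in caput than in cauda, 9 and 2 in corpus against cauda, and 12 and 9 in caput against corpus. The fusion protein Stx7 measured 286 and 278 RPKM in caput, 79.4 and 80.1 in corpus, then 61.2 and 67.7 in cauda, and caput exceeded cauda by 2.06 ± 0.08 (adjusted p = 3.55e-08). Its fusion partners Vamp8 (76.7, 215 and 169, -1.21 ± 0.08), Vti1b (68.2, 116 and 117, -0.85 ± 0.07) and Stx8 (9.33, 15.7 and 15.6, -0.81 ± 0.07) were lower in caput. Cln3, a lysosomal membrane protein mutated in Batten disease (28.3, 12.4 and 7.51, 1.85 ± 0.08), and the sialic acid exporter Slc17a5 (24.0, 10.3 and 6.95, 1.72 ± 0.09) were higher.

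Of 23 genes that deliver enzymes to the lysosome, 14 were higher and 7 lower in caput than in cauda, 4 and 4 in corpus against cauda, and 13 and 6 in caput against corpus. Ap1s1, a subunit of the adaptor that loads vesicles at the Golgi, measured 21.0 and 20.4 RPKM in caput, 4.28 and 3.72 in corpus, then 2.32 and 2.89 in cauda and caput exceeded cauda by 2.92 ± 0.14 (adjusted p = 1.48e-07). The retromer subunits Vps26a (28.4, 15.6 and 13.0, 1.06 ± 0.08) and Vps35 (65.9, 35.6 and 33.5, 0.91 ± 0.08), which return sorting receptors to the Golgi, were higher in caput. The sorting adaptor Gga2 (8.88, 23.0 and 17.7, -1.06 ± 0.09), the sorting receptor Sort1 (19.8, 42.8 and 36.9, -0.97 ± 0.10) and Gnptg, a subunit of the phosphotransferase that makes the mannose 6-phosphate tag (55.3, 80.7 and 104, -0.97 ± 0.11), were lower. Gnptab, which encodes the catalytic part of that enzyme and was looked up after its values were seen, measured 9.88 and 7.62 RPKM in caput, 0.945 and 1.10 in corpus, then 2.85 and 2.28 in cauda, highest in caput and lowest in corpus without overlap.

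Of 38 tested genes of lysosome biogenesis and nutrient signalling, 19 were higher and 6 lower in caput than in cauda, 7 and 7 in corpus against cauda, and 16 and 6 in caput against corpus. Rragd, a small GTPase that recruits the growth regulator mTORC1 and TFEB to the lysosome, measured 18.9 and 17.3 RPKM in caput, 3.60 and 3.98 in corpus, then 1.21 and 1.32 in cauda. It fell at each step as Tfeb did, and caput exceeded cauda by 3.77 ± 0.12 (adjusted p = 1.13e-08). Flcn, which acts on the Rag GTPases (14.4, 5.85 and 3.83, 1.84 ± 0.14), and the mTORC1 subunit Rptor (3.09, 1.34 and 0.922, 1.68 ± 0.13) were higher in caput. Lamtor2, a subunit of the Ragulator anchor (74.6, 184 and 218, -1.61 ± 0.07), Bloc1s1, a subunit of complexes that position lysosomes or form lysosome-related organelles (3.47, 11.8 and 14.2, -2.10 ± 0.15), and Hps1 of such a complex (4.28, 6.01 and 8.43, -1.04 ± 0.11) were lower. In the parentheses of these lists the 3 values are mean RPKM in caput, corpus and cauda and the last is the log2 fold change of caput against cauda.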

How the data were processed

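RNA was sequenced from sorted clear cells in 6 libraries, 2 for each of 3 regions, per the labels' protocols. The library kit was Clontech SMARTer v4 and the sequencer a HiSeq2500, also per the labels' protocols. The authors deposited 1 file of read counts for every library and 1 table of RPKM for all 6, and STAR, HTSeq, edgeR and the build mm9 are named in the submitters' processing notes with no versions. The deposited counts were made without strand, per the file names. The deposited RPKM equal these counts divided by the deposited gene length (unit "other", bases) and by the library size times 1 factor per library, 1.33 and 1.39 in caput, 0.957 and 0.925 in corpus, then 0.774 and 0.792 in cauda. Columns not mapped to a sample numbered 0.

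Records outside genes did not enter library sizes or tests: 6.67% to 9.48% of records had no feature, 1.39% to 1.83% were ambiguous and 33.1% to 38.6% had no unique position. Replicates differed by more than sampling noise (with 10 or more reads per gene, the chi-square over its degrees of freedom was 17.2 for caput, 9.57 for corpus and 12.2 for cauda), so each library was kept. The counts were tested with edgeR 4.0.16 in R 4.3.3 (filterByExpr, TMM, robust quasi-likelihood F tests, two-sided, region as the only factor, 3 residual degrees of freedom), and the steps were tested on simulated data. Alternatives were scaling by library totals, DESeq2 1.42.0, no filter on low counts (at least 1 read), only the 4 libraries compared, a replicate block, removal of a loess trend on gene length (span 0.5), and leaving out each library.

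The members, the lists and the alternatives were chosen with earlier results of these data known, and the pattern counts under the alternatives were added after seeing the data. Values in every library are given for the called members with the largest difference in each direction per role and comparison, the 8 most abundant, those highest or lowest in corpus, Tfeb and those never called; others are named where a result turned on them. Of each further list up to 3 genes per direction with the smallest adjusted p in caput against cauda are named, and some genes that this rule takes are not reported here. The names Vamp7, Lamtor1, Lamtor4, Lamtor5 and Adgre1 were not used here, and no gene coordinates are given because the reference at hand is of another build.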

Additional observations from a re-analysis of the deposited data

How the results depend on the processing

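With scaling by library totals, members called higher and lower became 30 and 5 in caput against cauda, 21 and 8 in corpus against cauda, and 30 and 8 in caput against corpus, and all genes 9498 and 2566, 5154 and 1736, and 8436 and 2973. Members highest in caput became 25 and in cauda 2, and those lowest in caput 3 and in cauda 17. Directions turned in caput against cauda for Gaa 0.70, Gusb 0.71, Galc 0.84, Naglu 0.84, Fuca1 0.17, Ppt1 0.53, Lamp2 0.77 and Grn 0.43, in corpus against cauda for Asah1 0.019 and Ctsb 0.26, and in caput against corpus for Gaa 0.42, Gla 0.58, Gusb 0.27, Naglu 0.094, Manba 0.40, Arsa 0.45, Ppt1 0.55, Cd63 0.15, Laptm4b 0.31, Ctns 0.43 and Grn 0.33; the scaling itself adds the shift of the median. With the gene length trend removed, caput against corpus became -0.10 for Ctsb and 0.20 for Cd63, and with the replicate block and the gene length trend removed together -0.095 and 0.20; the cause was not tested. Leaving out 1 library gave 16 to 18 members higher and 13 lower in caput against cauda, 13 to 17 higher and 8 to 13 lower in corpus against cauda, and 16 to 17 higher and 12 to 14 lower in caput against corpus, with the 8 reached without corpus 1. All genes lower in corpus than in cauda then ranged from 1855 to 3094, and members lowest in corpus from 4 to 7; the lone library of a region was assumed to vary like the others, and fewer libraries were compared. DESeq2, no filter on low counts and only the 4 libraries compared kept every count of members within 1.5 times the main one. Same-numbered libraries deviated together with correlations of 0.187 in caput and corpus, 0.162 in caput and cauda and 0.134 in corpus and cauda, but with 2 numbers and no label that ties them they were treated as sharing a number alone. With the replicate block, 20 members were higher and 13 lower in caput against cauda, 17 and 14 in corpus against cauda, and 17 and 14 in caput against corpus. Depth limits Acp5 most, with 8 reads in its lowest library.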
